A study of Mus musculus with 16 samples.

Results

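Hypertension induced by angiotensin II (AngII) was compared with control treatment in the aorta of 2 inbred mouse strains, and the genes that moved the same way and by a similar amount in both strains are described. RNA sequencing was done on 16 libraries of whole descending thoracic aorta, the stretch of the aorta inside the chest. The 4 groups were C57BL/6J control, C57BL/6J with AngII, 129S6/SvEvTac control and 129S6/SvEvTac with AngII, each with 4 libraries. The dose, route and duration of AngII and the age and sex of the mice are not stated in the labels. All 16 libraries entered the contrast, which is the mean of the AngII effect in C57BL/6J and the AngII effect in 129S6/SvEvTac on the log2 scale. A gene was counted as shared when its average effect had an adjusted p under 0.05 (edgeR quasi-likelihood test, Benjamini-Hochberg adjustment over all 17125 genes tested), both strain effects had that direction and reached 1.5-fold, and the effects lay within 0.5 log2 units of each other, a ratio of at most 1.41. By this rule 667 of the 17125 genes tested were shared, 3.89%, with 313 higher and 354 lower with AngII. The rule uses the strain effects themselves, so the closeness of those effects and the separation of the groups are descriptions of the chosen genes and carry no test.

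AngII is the effector peptide of the renin-angiotensin system. Through its type 1 receptor it constricts arteries, raises aldosterone release and blood pressure, and drives growth of the vessel wall. In the aorta, smooth muscle cells and adventitial fibroblasts answer raised pressure by laying down collagen, elastin and other matrix proteins, which stiffens the wall. Inbred strains are known to differ in how far this remodelling goes.

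Counts per library summed to between 42116120 and 61381134 in 15 libraries and to 121573945 in 129S6/SvEvTac AngII 5. Smooth muscle markers had the highest sum of the marker lists in both control groups and in 129S6/SvEvTac with AngII, with a summed level of 40758 to 44053 CPM in C57BL/6J controls and 40321 to 43552 CPM in 129S6/SvEvTac controls, as aortic tissue has. CPM are counts scaled to a common library total. With AngII this sum was 13081 to 30820 CPM in C57BL/6J and 38297 to 47797 CPM in 129S6/SvEvTac. Macrophage markers summed to 578 to 756 CPM in C57BL/6J controls, 1540 to 3078 CPM with AngII, 312 to 557 CPM in 129S6/SvEvTac controls and 412 to 758 CPM with AngII. Adipocyte markers summed to 1162 to 1776 CPM in C57BL/6J controls and 1182 to 15678 CPM with AngII, so these ranges overlapped. The 15678 CPM lay within the range of the smooth muscle sum in C57BL/6J with AngII. In 129S6/SvEvTac adipocyte markers ran from 1244 to 3385 CPM in controls and from 2178 to 5430 CPM with AngII. These lists differ in level between groups, their part in the effects described here was not tested, and in whole tissue fewer cells of a type and less RNA per cell cannot be told apart.

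The average effect passed the threshold in 6790 genes, 3797 of them higher (22.2% of genes tested) and 2993 lower (17.5%). When libraries were scaled by total count alone, the median of all genes moved from 0.01 to -0.12 log2 units and the share of calls that were higher fell from 55.9% to 36.8%, so counts of direction depend on the scaling. Most of the 6790 genes were not shared by the rule. In 2399 the effects had the same direction and the C57BL/6J effect was larger by more than the limit, and in 279 the 129S6/SvEvTac effect was. A further 3091 lay within the limit but stayed under 1.5-fold in a strain, and in 354 the estimates had opposite signs. Each strain on its own gave 6664 calls in C57BL/6J (38.9%) and 2087 in 129S6/SvEvTac (12.2%), and the difference between the strain effects was called in 1706 genes (9.96%). In controls, the strains differed in 1783 genes (10.4%).

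Of the 667 shared genes, 392 were also called in each strain separately and 118 were called in neither strain and passed through the average alone. The 95% interval of the difference stayed within 1 log2 unit either way for 312 of them, 172 higher and 140 lower, and these are called bounded below. Their median CPM in controls was 30.4 for the risers and 15.4 for the fallers, against 9.64 and 4.98 for all shared risers and fallers. For the rest the data allow a difference of more than 2-fold. The median effect of the risers was 1.07 in C57BL/6J and 0.99 in 129S6/SvEvTac, and that of the fallers was -1.06 and -0.92. AngII libraries lay wholly above controls in both strains for 203 of the 313 risers and wholly below for 203 of the 354 fallers. Over all genes tested these patterns held for 6.59% and 5.43%. The control level differed between strains in 84 of the 667, a share near the 10.4% of all genes.

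**Figure D1:**
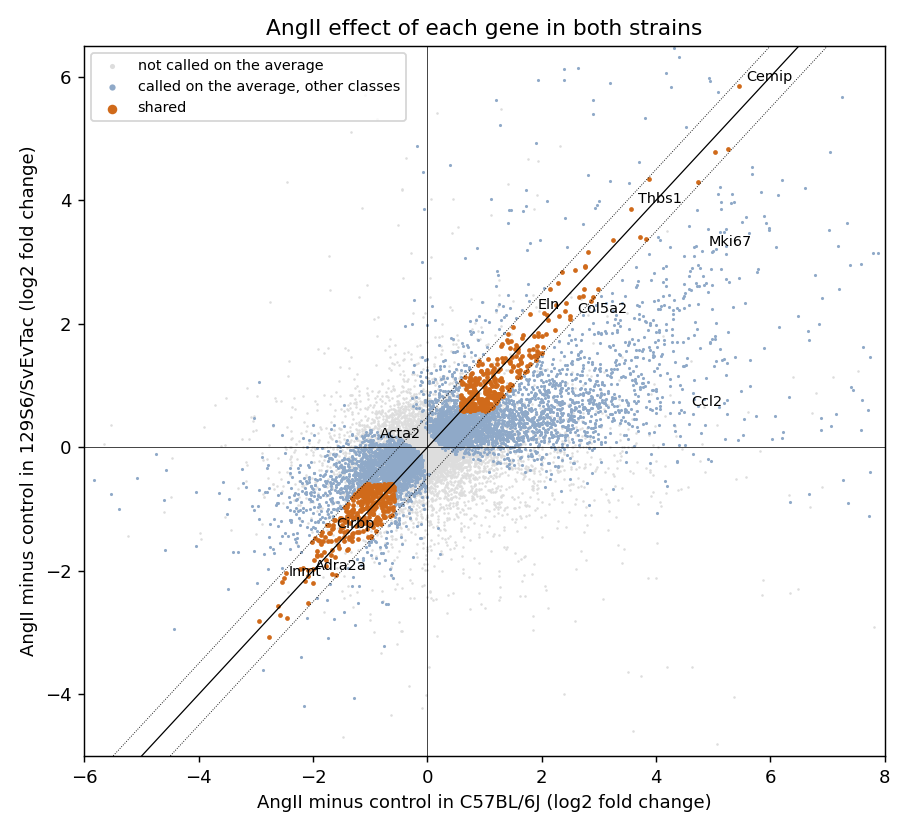
AngII effect of each tested gene in C57BL/6J (x axis) against 129S6/SvEvTac (y axis), both as log2 fold change. Orange points are the 667 shared genes, which the rule places between the dotted lines at 0.5 log2 units either side of equality, and 60 of the 17125 genes lie outside the axes. Col5a2, Eln and Thbs1 sit near the line of equality, and Ccl2, Mki67 and Acta2 sit away from it.

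The shared genes were then followed library by library, as a description, since these libraries chose them. Relative to the controls of its own strain, the median shared riser stood at 1.14, 1.29, 0.89 and 0.99 log2 units in C57BL/6J AngII 1, 2, 3 and 5, and at 1.006, 0.999, 0.957 and 0.989 in 129S6/SvEvTac AngII 1, 2, 4 and 5. The median shared faller stood at -1.19, -1.37, -0.74 and -0.92 in the same C57BL/6J libraries and at -0.83, -0.94, -0.91 and -0.89 in those of 129S6/SvEvTac. The 129S6/SvEvTac libraries were close to each other, and among the C57BL/6J libraries number 2 had the widest response and number 3 the narrowest. Number 3 also had the lowest adipocyte marker score (mean log2 CPM of the list), 4.10 against 5.29 to 7.89, and the highest smooth muscle score, 10.02 against 8.91 to 9.28, of the C57BL/6J AngII libraries. Number 2, with the widest response, had an adipocyte score of 5.29 and a smooth muscle score of 9.27. Number 1 had the highest adipocyte score, 7.89, and the lowest smooth muscle score, 8.91. The part of either score was not tested.

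**Figure D2:**
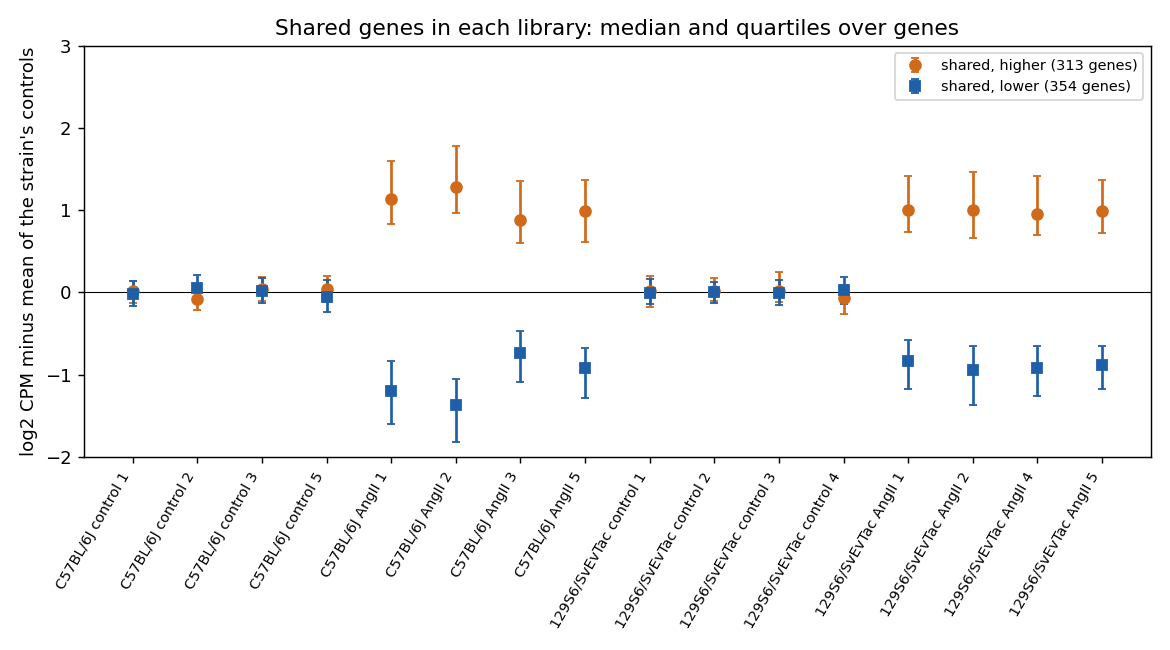
Level of the shared genes in each library as log2 CPM minus the mean of the same strain's controls. Points are medians and bars quartiles over the 313 risers (circles) and the 354 fallers (squares). Risers have medians of 0.89 to 1.29 and fallers of -1.37 to -0.74 in the 8 AngII libraries.

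Promoter sequence is a feature that the rule did not use. RefSeq promoters on GRCm38.p6 were matched for 238 of the 313 risers, 239 of the 354 fallers and 11941 of the genes tested, and 10 motifs were searched on both strands in the 250 bases before the start. The pattern TGANTCA, with any base at its centre, takes in the AP-1 element (TGACTCA or TGAGTCA) bound by Fos and Jun family proteins. It was present in 25 of 238 riser promoters (10.5%), 10 of 239 faller promoters (4.18%) and 4.54% of all. These counts include matches with another centre base, such as TGAATCA in Tpbg, so they are not counts of AP-1 elements alone. TATAAA was present in 10.9%, 7.11% and 6.93%. The CCAAT box, CCAAT, was present in 27.7%, 34.7% and 36.0%. The endoplasmic reticulum stress element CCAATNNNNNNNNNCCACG contains a CCAAT box and was found in 2 of the 238 risers and in 0.134% of all promoters. The remaining 6 were GGAATG (10.9%, 14.2% and 10.8%), the CArG box by its name (0.84%, 2.09% and 1.16%), TTTGAA (8.82%, 14.2% and 10.9%), TGACGTCA (0.84%, 1.67% and 2.54%), CACGTG (7.98%, 6.69% and 8%) and TTATGNAA (2.94%, 1.26% and 2.02%). A match describes these letters and is not evidence of binding. Promoters of 4 risers are shown for the AP-1 and stress elements, as 150 bases before the start with matches to the searched motifs in capitals.

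Plaur, chr7:24462333-24462482, plus strand: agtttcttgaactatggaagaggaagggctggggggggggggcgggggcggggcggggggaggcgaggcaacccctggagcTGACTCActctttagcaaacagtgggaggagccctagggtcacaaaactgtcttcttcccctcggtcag
Anxa2, chr9:69453533-69453682, plus strand: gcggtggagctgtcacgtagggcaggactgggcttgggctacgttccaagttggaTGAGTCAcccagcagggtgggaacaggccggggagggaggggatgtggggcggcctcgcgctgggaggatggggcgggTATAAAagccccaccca
Gja1, chr10:56377150-56377299, plus strand: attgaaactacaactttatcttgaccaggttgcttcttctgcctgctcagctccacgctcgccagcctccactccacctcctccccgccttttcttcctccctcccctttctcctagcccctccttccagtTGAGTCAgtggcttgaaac
Hspa5, chr2:34771940-34772089, plus strand: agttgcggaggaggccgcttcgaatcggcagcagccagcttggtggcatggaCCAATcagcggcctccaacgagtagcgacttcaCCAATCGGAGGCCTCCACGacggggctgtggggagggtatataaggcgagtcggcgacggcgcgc

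The capitals mark an AP-1 element in Plaur, Anxa2 and Gja1, with a TATA box in Anxa2, and a CCAAT box and a stress element in Hspa5. The average effects of these 4 genes were 1.46 ± 0.17, 1.03 ± 0.10, 1.12 ± 0.25 and 0.83 ± 0.20 log2 units (± SE). Gja1, which encodes a gap junction connexin, had effects of 1.03 ± 0.36 (SE) in C57BL/6J and 1.21 ± 0.36 in 129S6/SvEvTac. Anxa2 encodes a calcium-dependent membrane-binding protein, and had effects of 1.16 ± 0.14 (SE) in C57BL/6J and 0.89 ± 0.14 in 129S6/SvEvTac.

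Among matrix genes, 19 of 20 collagen genes were called higher on the average and none lower, against 22.2% and 17.5% of all genes tested. The 5 shared were Col5a2, Col15a1, Col4a1, Col4a2 and Col6a1. All 5 were bounded. The list had a median effect of 1.80 in C57BL/6J and 1.23 in 129S6/SvEvTac, against 0.01 and 0.00 for all genes tested, and its shared members include the network-forming basement membrane chains Col4a1 and Col4a2. Col1a1, the major fibrillar collagen, was not shared, with effects of 2.98 ± 0.26 and 1.87 ± 0.25 (adjusted p of the difference 0.052, edgeR).

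In C57BL/6J, Col5a2 stood at 468, 411, 463 and 449 CPM in controls and at 2857, 2950, 1997 and 2356 CPM with AngII. Levels of Col5a2 in 129S6/SvEvTac were 410.0, 321, 296 and 314 CPM in controls and 1522, 1489, 1376 and 1308 CPM with AngII. The AngII libraries lay above all controls in both strains. Col5a2 (ENSMUSG00000026042.16, chromosome 1, 45374321 to 45503282 on GRCm38) encodes a chain of type V collagen, which sets the diameter of collagen fibrils, and its average rise was 4.91-fold (2.30 ± 0.09 log2, adjusted p = 2.4e-09, edgeR). Its effects were 2.50 ± 0.13 (SE) in C57BL/6J and 2.09 ± 0.13 in 129S6/SvEvTac, and the difference was 0.42, with a 95% interval from 0.04 to 0.80. Col15a1, a basement membrane proteoglycan collagen, rose by 1.44 ± 0.15 (SE) in C57BL/6J and 1.62 ± 0.15 in 129S6/SvEvTac (adjusted p of the average = 2e-07, edgeR). Its difference was -0.18, with a 95% interval from -0.63 to 0.28. Col4a1 (0.93 and 1.23), Col4a2 (0.79 and 1.21) and Col6a1 (0.84 and 0.66) had smaller effects in the order C57BL/6J, 129S6/SvEvTac.

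Of 28 genes that modify and crosslink collagen, 27 were called higher, against 22.2% of all genes tested. The 10 shared ones were the largest shared group of any list, all higher and all bounded, against 3.89% shared of all genes tested. They were the lysyl hydroxylases Plod1 and Plod2, the prolyl hydroxylase subunits P4ha1 and P4ha2, the lysyl oxidase-like enzymes Loxl1 and Loxl3, the procollagen proteinases Bmp1, Adamts2 and Adamts14, and Pcolce, which speeds removal of the procollagen C-propeptide. In C57BL/6J, Plod2 stood at 121, 119, 103 and 98.7 CPM in controls and at 330.1, 432, 312 and 287 CPM with AngII. Levels of Plod2 in 129S6/SvEvTac were 95.2, 92.7, 99.0 and 95.9 CPM in controls and 258, 197, 238 and 215 CPM with AngII. No AngII library overlapped a control. Plod2 (ENSMUSG00000032374.14, chromosome 9, 92542223 to 92608428) hydroxylates telopeptide lysines before crosslinking, and its effects were 1.63 ± 0.12 (SE) in C57BL/6J and 1.25 ± 0.12 in 129S6/SvEvTac (adjusted p of the average = 4.7e-08, edgeR).

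P4ha2 had the closest effects of the 10, 0.87 ± 0.12 in both strains, with a 95% interval of the difference from -0.36 to 0.35. Bmp1 had effects of 1.29 ± 0.15 (SE) in C57BL/6J and 0.95 ± 0.15 in 129S6/SvEvTac. Plod1 had 1.08 and 0.85 and P4ha1 1.04 and 1.08 in the order C57BL/6J, 129S6/SvEvTac. The others were Adamts2 (1.18 and 1.12), Adamts14 (1.25 and 1.08), Pcolce (1.17 and 0.84), Loxl3 (1.08 and 0.70) and Loxl1 (0.59 and 0.79) in the same order. Reads for Loxl3 are uncertain, as 11.6% of its exonic length is overlapped by Htra2. Lox, the lysyl oxidase itself, fell outside the rule with 2.90 ± 0.19 and 2.02 ± 0.19, and its difference was called (0.88, adjusted p = 0.039, edgeR).

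In the elastic fibre list 12 of 17 genes were called higher and 1 lower, against 22.2% and 17.5% of all genes tested. Eln, Ltbp2 and Mfap5 were shared. In C57BL/6J, Eln stood at 4634, 3458, 4716 and 5609 CPM in controls and at 20680, 17680, 12070 and 13630 CPM with AngII. Levels of Eln in 129S6/SvEvTac were 4378, 2420, 1892 and 1437 CPM in controls and 11810, 9896, 10780 and 12710 CPM with AngII. Elastin, encoded by Eln (ENSMUSG00000029675.12, chromosome 5, 134702593 to 134747323), is the protein that lets the aorta recoil, and its AngII libraries lay above the controls of their strain. The effects were 1.80 ± 0.28 (SE) in C57BL/6J and 2.16 ± 0.29 in 129S6/SvEvTac (adjusted p of the average = 4e-06, edgeR), and the difference, -0.36, with a 95% interval from -1.19 to 0.47, was not bounded. Ltbp2, which encodes a microfibril-associated protein, was bounded with 1.93 ± 0.15 (SE) in C57BL/6J and 1.85 ± 0.15 in 129S6/SvEvTac. Mfap5 encodes a microfibril glycoprotein and is also on the adventitial fibroblast marker list. Of that list 4 of 16 genes were called higher and 2 lower, against 22.2% and 17.5% of all genes tested. The effects of Mfap5 were 0.80 ± 0.23 (SE) in C57BL/6J and 1.005 ± 0.24 in 129S6/SvEvTac, and C57BL/6J AngII 3 at 220.4 CPM lay below the highest C57BL/6J control at 235 CPM.

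Matricellular proteins sit in the matrix and alter cell behaviour. Of 27 members, 23 were called higher and 1 lower, against 22.2% and 17.5% of all genes tested. Fn1, Postn, Tnc, Sparc, Thbs1, Comp and Ccn2 were shared. In C57BL/6J, Postn stood at 1732, 1691, 1738 and 1821 CPM in controls and at 6712, 5887, 4734 and 5017 CPM with AngII. Levels of Postn in 129S6/SvEvTac were 1718, 1534, 1559 and 1682 CPM in controls and 5445, 6152, 6956 and 4496 CPM with AngII. Postn (ENSMUSG00000027750.16, chromosome 3, 54361109 to 54391037) encodes periostin, a protein of activated fibroblasts, and its controls were within 1534 to 1821 CPM in both strains. Its effects were 1.68 ± 0.13 (SE) in C57BL/6J and 1.83 ± 0.13 in 129S6/SvEvTac (adjusted p of the average = 2.8e-08, edgeR), with a difference of -0.15, with a 95% interval from -0.54 to 0.24. Fn1, encoding fibronectin, had 1.41 ± 0.12 (SE) in C57BL/6J and 1.71 ± 0.12 in 129S6/SvEvTac. Sparc, a collagen-binding glycoprotein, had 1.54 ± 0.16 (SE) in C57BL/6J and 1.59 ± 0.16 in 129S6/SvEvTac. Tnc, encoding tenascin C, had 1.87 ± 0.24 (SE) in C57BL/6J and 1.80 ± 0.23 in 129S6/SvEvTac.

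In C57BL/6J, Thbs1 stood at 98.8, 128, 116 and 174 CPM in controls and at 1142, 2728, 1411 and 806 CPM with AngII. Levels of Thbs1 in 129S6/SvEvTac were 80.5, 81.1, 134 and 70.2 CPM in controls and 876, 2625, 695 and 1132 CPM with AngII. Thbs1 (ENSMUSG00000040152.8, chromosome 2, 118111876 to 118127133) encodes thrombospondin 1, an activator of latent TGF-beta, and had an average rise of 13.1-fold (adjusted p = 9.3e-07, edgeR). Both AngII groups spread widely, with library 2 highest in each, and the effects were 3.55 ± 0.45 (SE) in C57BL/6J and 3.87 ± 0.46 in 129S6/SvEvTac. The Thbs1 difference was -0.31, with a 95% interval from -1.54 to 0.92, so the data do not bound it within 2-fold. Ccn2, a connective tissue growth factor, had 1.44 ± 0.28 (SE) in C57BL/6J and 1.36 ± 0.28 in 129S6/SvEvTac, and C57BL/6J control 5 at 3348 CPM lay above C57BL/6J AngII 5 at 3286 CPM. Of the exonic length of Ccn2, 23.2% is overlapped by Gm15270.

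**Figure D3:**
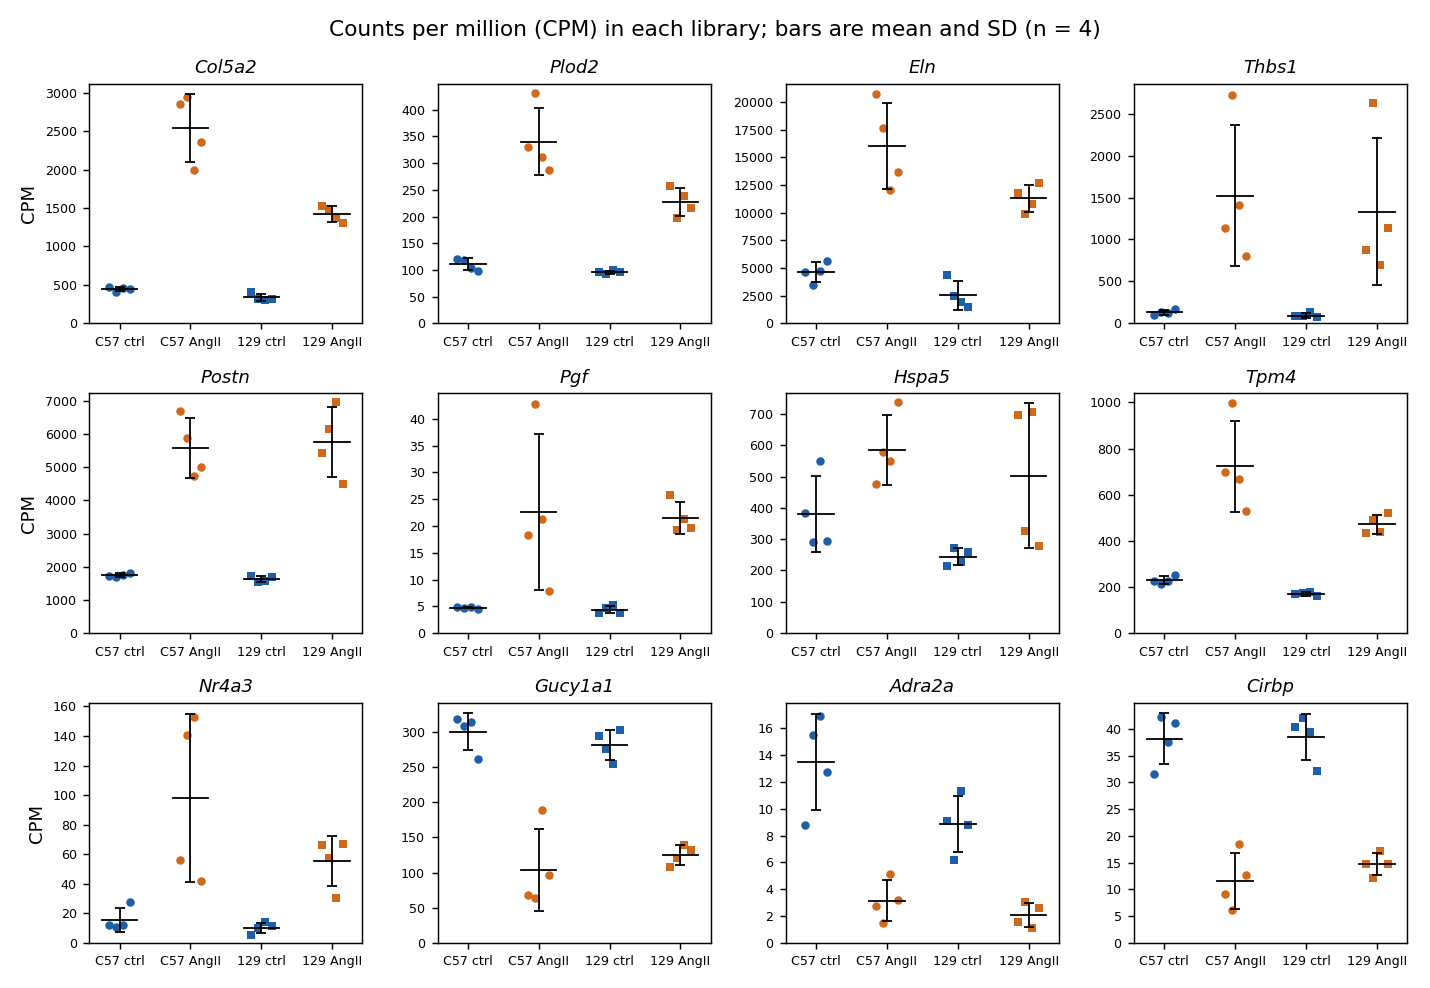
Level in CPM of 12 shared genes in each library, with controls in blue, AngII in orange, C57BL/6J as circles and 129S6/SvEvTac as squares. Horizontal lines are means and bars are SD (n = 4), and each y axis starts at 0. AngII and control libraries do not overlap in either strain except for Hspa5.

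Proteases and their inhibitors gave 5 shared members of 27, against 3.89% of all genes tested. Of the 27, 16 were called higher and 3 lower, against 22.2% and 17.5%. Plasminogen activation was represented by the activator Plat and the urokinase receptor Plaur. In C57BL/6J, Plat stood at 95.2, 114.8, 115.2 and 90.7 CPM in controls and at 216, 283, 233 and 208 CPM with AngII. Levels of Plat in 129S6/SvEvTac were 44.1, 51.9, 50.6 and 39.5 CPM in controls and 103.9, 77.5, 100.6 and 88.7 CPM with AngII. No libraries overlapped within a strain, and the control level was higher in C57BL/6J (mean 104.0 against 46.5 CPM). Plat (ENSMUSG00000031538.6, chromosome 8, 22757727 to 22782844) encodes tissue plasminogen activator and had effects of 1.18 ± 0.13 (SE) in C57BL/6J and 0.99 ± 0.13 in 129S6/SvEvTac. Its difference was 0.18, with a 95% interval from -0.20 to 0.57. Plaur had 1.71 ± 0.23 (SE) in C57BL/6J and 1.22 ± 0.23 in 129S6/SvEvTac. It met the shared rule in 8 of the 16 fits that left out 1 library. The macrophage elastase Mmp12 rose from 1.19 to 2.87 CPM to 4.24 to 13.3 CPM in C57BL/6J and was at 0 in 1 control and 1 AngII library of 129S6/SvEvTac. Adamts15, an aggrecan-cleaving protease, was lower, with -1.19 ± 0.28 (SE) in C57BL/6J and -1.01 ± 0.28 in 129S6/SvEvTac.

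Of the 28 TGF-beta and BMP signalling genes 9 were called higher and 4 lower, against 22.2% and 17.5% of all genes tested, and Tgfb2 and Bambi met the rule. In C57BL/6J, Tgfb2 stood at 136, 106, 111 and 154 CPM in controls and at 163, 203, 281 and 155 CPM with AngII. Levels of Tgfb2 in 129S6/SvEvTac were 159.6, 162, 189.8 and 172 CPM in controls and 380.3, 386, 328 and 418 CPM with AngII. Tgfb2 encodes a TGF-beta ligand, its levels did not overlap between AngII and control libraries, and its effects were 0.66 ± 0.17 (SE) in C57BL/6J and 1.15 ± 0.17 in 129S6/SvEvTac. The difference of -0.49, with a 95% interval from -0.99 to 0.02, lies close to the limit. Bambi, a decoy receptor that dampens TGF-beta signalling, had -0.65 ± 0.29 (SE) in C57BL/6J and -1.11 ± 0.29 in 129S6/SvEvTac, with C57BL/6J AngII 3 at 31.1 CPM within the range of its controls. Adding the adipocyte score to the model moved the average effect of Bambi to -0.52, and its call was lost (adjusted p = 0.060, edgeR, with 9.3e-05 to 0.060 over all alternatives).

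Fallers among regulators of vessel tone included Gucy1a1 and Nr3c2 from the list of 40 vasoactive genes, of which 8 were called higher and 16 lower, against 22.2% and 17.5% of all genes tested. In C57BL/6J, Gucy1a1 stood at 318, 309, 314 and 261 CPM in controls and at 68.3, 63.4, 189 and 96.4 CPM with AngII. Levels of Gucy1a1 in 129S6/SvEvTac were 294, 276, 255 and 303 CPM in controls and 107, 121, 139 and 133 CPM with AngII. Gucy1a1 (ENSMUSG00000033910.13, chromosome 3, 82092427 to 82145789) encodes a subunit of soluble guanylate cyclase, the nitric oxide receptor of smooth muscle. No libraries overlapped, C57BL/6J AngII 3 was the highest AngII library, and the effects were -1.53 ± 0.26 (SE) in C57BL/6J and -1.17 ± 0.26 in 129S6/SvEvTac (adjusted p of the average = 3.8e-05, edgeR). Smooth muscle markers had a median effect of -0.92 in C57BL/6J and 0.04 in 129S6/SvEvTac, and their part in the Gucy1a1 effect was not tested. Nr3c2, the mineralocorticoid receptor, had -0.83 ± 0.38 (SE) in C57BL/6J and -0.70 ± 0.38 in 129S6/SvEvTac, with overlap in both strains, and its call was lost in 10 of 27 alternative settings (adjusted p 0.0042 to 0.16).

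In C57BL/6J, Adra2a stood at 8.78, 15.5, 16.9 and 12.8 CPM in controls and at 2.75, 1.49, 5.16 and 3.21 CPM with AngII. Levels of Adra2a in 129S6/SvEvTac were 9.07, 6.21, 11.3 and 8.81 CPM in controls and 1.58, 3.08, 1.08 and 2.6 CPM with AngII. Adra2a (ENSMUSG00000033717.5, chromosome 19, 54044151 to 54048982) encodes the alpha-2A adrenergic receptor, which restrains noradrenaline release from nerve endings. Its effects, -2.09 ± 0.37 (SE) in C57BL/6J and -2.08 ± 0.37 in 129S6/SvEvTac, were among the closest of the large fallers (adjusted p of the average = 2.1e-05, edgeR), but the difference had a 95% interval from -1.13 to 1.10. Bdkrb2, the bradykinin B2 receptor, had -1.41 ± 0.30 (SE) in C57BL/6J and -1.36 ± 0.31 in 129S6/SvEvTac and was bounded. Both receptors had no overlap between AngII and control libraries. The type 1 angiotensin receptor Agtr1a was not called, with 0.60 ± 0.34 and 0.21 ± 0.33, and its control level differed by -1.94 log2 units (C57BL/6J minus 129S6/SvEvTac) (adjusted p = 0.0015, edgeR).

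Among shared genes with at least 5 CPM and no overlap between AngII and control libraries, the largest falls were mostly genes outside the lists. In C57BL/6J, Inmt stood at 66.9, 96.8, 86.6 and 84.6 CPM in controls and at 2.69, 8.57, 37.9 and 7.86 CPM with AngII. Levels of Inmt in 129S6/SvEvTac were 132, 146, 158 and 139 CPM in controls and 42.7, 16.3, 45.3 and 23.3 CPM with AngII. Inmt (ENSMUSG00000003477.5, chromosome 6, 55170626 to 55175043) encodes indolethylamine N-methyltransferase, and C57BL/6J AngII 3 stood apart from the other libraries of its group. Its effects were -2.55 ± 0.57 (SE) in C57BL/6J and -2.17 ± 0.56 in 129S6/SvEvTac. In C57BL/6J, Olfml2a stood at 85.2, 95.4, 82.3 and 80.3 CPM in controls and at 19.3, 15.9, 31.5 and 28.3 CPM with AngII. Levels of Olfml2a in 129S6/SvEvTac were 33.7, 44.0, 42.6 and 43.7 CPM in controls and 10.7, 18.4, 11.8 and 14.5 CPM with AngII. Olfml2a (ENSMUSG00000046618.7, chromosome 2, 38931978 to 38963753) encodes an extracellular olfactomedin-domain protein. It was bounded with -1.85 ± 0.20 (SE) in C57BL/6J and -1.57 ± 0.20 in 129S6/SvEvTac (adjusted p of the average = 7e-07, edgeR), although its control level was 1.06 log2 units higher in C57BL/6J (adjusted p = 0.0021, edgeR).

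In C57BL/6J, Cirbp stood at 31.6, 42.3, 37.6 and 41.1 CPM in controls and at 9.19, 6.08, 18.4 and 12.6 CPM with AngII. Levels of Cirbp in 129S6/SvEvTac were 40.4, 42.1, 39.4 and 32.2 CPM in controls and 14.8, 12.1, 17.2 and 14.7 CPM with AngII. Cirbp (ENSMUSG00000045193.13, chromosome 10, 80165985 to 80172786), a cold-inducible RNA-binding protein, had nearly equal controls in both strains and effects of -1.72 ± 0.24 (SE) in C57BL/6J and -1.39 ± 0.24 in 129S6/SvEvTac (adjusted p of the average = 7.7e-06, edgeR). Btc, encoding the EGF receptor ligand betacellulin, had -1.80 ± 0.28 (SE) in C57BL/6J and -1.45 ± 0.28 in 129S6/SvEvTac. Cdh3, encoding P-cadherin, had -1.37 ± 0.27 (SE) in C57BL/6J and -1.48 ± 0.27 in 129S6/SvEvTac. Foxo6, a forkhead transcription factor, had -1.51 ± 0.24 (SE) in C57BL/6J and -1.31 ± 0.24 in 129S6/SvEvTac, and Rnd2, a small GTPase, -1.30 ± 0.18 (SE) in C57BL/6J and -1.38 ± 0.18 in 129S6/SvEvTac. The last 3 were bounded. Reads for Rnd2 are uncertain, as 11.4% of its exonic length lies under Vat1.

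Circadian output genes gave 3 shared fallers of 18, Npas2, Dbp and Hlf, with 1 gene of the list called higher and 6 lower, against 22.2% and 17.5% of all genes tested. Npas2, a partner in the clock's activating complex, had -1.33 ± 0.32 (SE) in C57BL/6J and -1.10 ± 0.32 in 129S6/SvEvTac without overlap in either strain. Hlf and Dbp are transcription factors of the clock's output arm. Hlf had -1.13 ± 0.39 (SE) in C57BL/6J and -1.22 ± 0.39 in 129S6/SvEvTac and Dbp -0.66 ± 0.21 (SE) in C57BL/6J and -0.71 ± 0.21 in 129S6/SvEvTac. For both, C57BL/6J AngII and control libraries overlapped. Adding the adipocyte score to the model moved the average effect of Hlf to -0.85, and its call was lost (adjusted p = 0.070, edgeR, with 6.6e-05 to 0.070 over all alternatives). The time of day of tissue collection is not stated in the labels, and 18.01% of the exonic length of Dbp is overlapped by Sphk2.

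Genes that load and fold secreted proteins rose in part. Of 23 chaperone and unfolded protein response genes, 18 were called higher and 1 lower, against 22.2% and 17.5% of all genes tested. Hspa5, Pdia5, Pdia6, Dnajb11, Sdf2l1 and Manf were shared. In C57BL/6J, Hspa5 stood at 383, 291, 551 and 296 CPM in controls and at 475, 577, 551 and 739 CPM with AngII. Levels of Hspa5 in 129S6/SvEvTac were 214, 273, 227 and 258 CPM in controls and 698, 326, 706 and 278 CPM with AngII. Hspa5 (ENSMUSG00000026864.13, chromosome 2, 34771970 to 34777547) encodes the chaperone BiP. Its AngII libraries in 129S6/SvEvTac split into 698 and 706 CPM against 326 and 278 CPM, C57BL/6J AngII overlapped the controls, and the effects were 0.62 ± 0.28 (SE) in C57BL/6J and 1.05 ± 0.29 in 129S6/SvEvTac (adjusted p of the average = 0.004, edgeR). The disulfide isomerases were tighter, with Pdia5 (1.31 and 0.85) and Pdia6 (0.98 and 0.62) in the order C57BL/6J, 129S6/SvEvTac and no overlap. Kdelr3, which returns such proteins to the endoplasmic reticulum, was the shared member of 43 secretory transport genes, with 0.99 ± 0.16 (SE) in C57BL/6J and 0.74 ± 0.16 in 129S6/SvEvTac. Of 27 amino acid and one-carbon supply genes 22 were called higher, against 22.2% of all genes tested. Mthfd2, Aldh18a1, Chac1 and Cars were shared. Aldh18a1, which makes the precursor of proline, had 1.15 ± 0.16 (SE) in C57BL/6J and 0.80 ± 0.16 in 129S6/SvEvTac. Cars, a cysteine tRNA ligase, had 0.70 ± 0.13 (SE) in C57BL/6J and 0.69 ± 0.13 in 129S6/SvEvTac.

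In the cytoskeleton list 29 of 42 genes were called higher and 5 lower, against 22.2% and 17.5% of all genes tested. Tpm4, Myh9, Anxa2, S100a4, Tubb6 and Tubb2a were shared. In C57BL/6J, Tpm4 stood at 225, 211, 224 and 252 CPM in controls and at 698, 997, 669 and 529 CPM with AngII. Levels of Tpm4 in 129S6/SvEvTac were 171, 173, 177 and 158 CPM in controls and 436, 488, 440.1 and 522 CPM with AngII. Tpm4 (ENSMUSG00000031799.9, chromosome 8, 72134975 to 72153142), a tropomyosin of non-muscle actin filaments, had effects of 1.66 ± 0.15 (SE) in C57BL/6J and 1.47 ± 0.15 in 129S6/SvEvTac (adjusted p of the average = 1.2e-07, edgeR) with no overlap. Tubb2a, a beta tubulin, had 1.14 ± 0.12 (SE) in C57BL/6J and 1.24 ± 0.12 in 129S6/SvEvTac. S100a4, a calcium-binding protein of motile cells, had 1.31 ± 0.17 (SE) in C57BL/6J and 1.45 ± 0.18 in 129S6/SvEvTac, and 51.7% of its exonic length is overlapped by Gm42674. None of the 26 genes of the contractile apparatus was shared, which for a list of this size is near the 3.89% of all genes tested. There, 19 were called lower on the average, against 17.5% of all genes tested, and the difference was called in 18, against 9.96%. The medians were -0.96 in C57BL/6J and -0.02 in 129S6/SvEvTac. Acta2, smooth muscle actin, had -0.95 ± 0.18 and 0.06 ± 0.18.

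**Figure D4:**
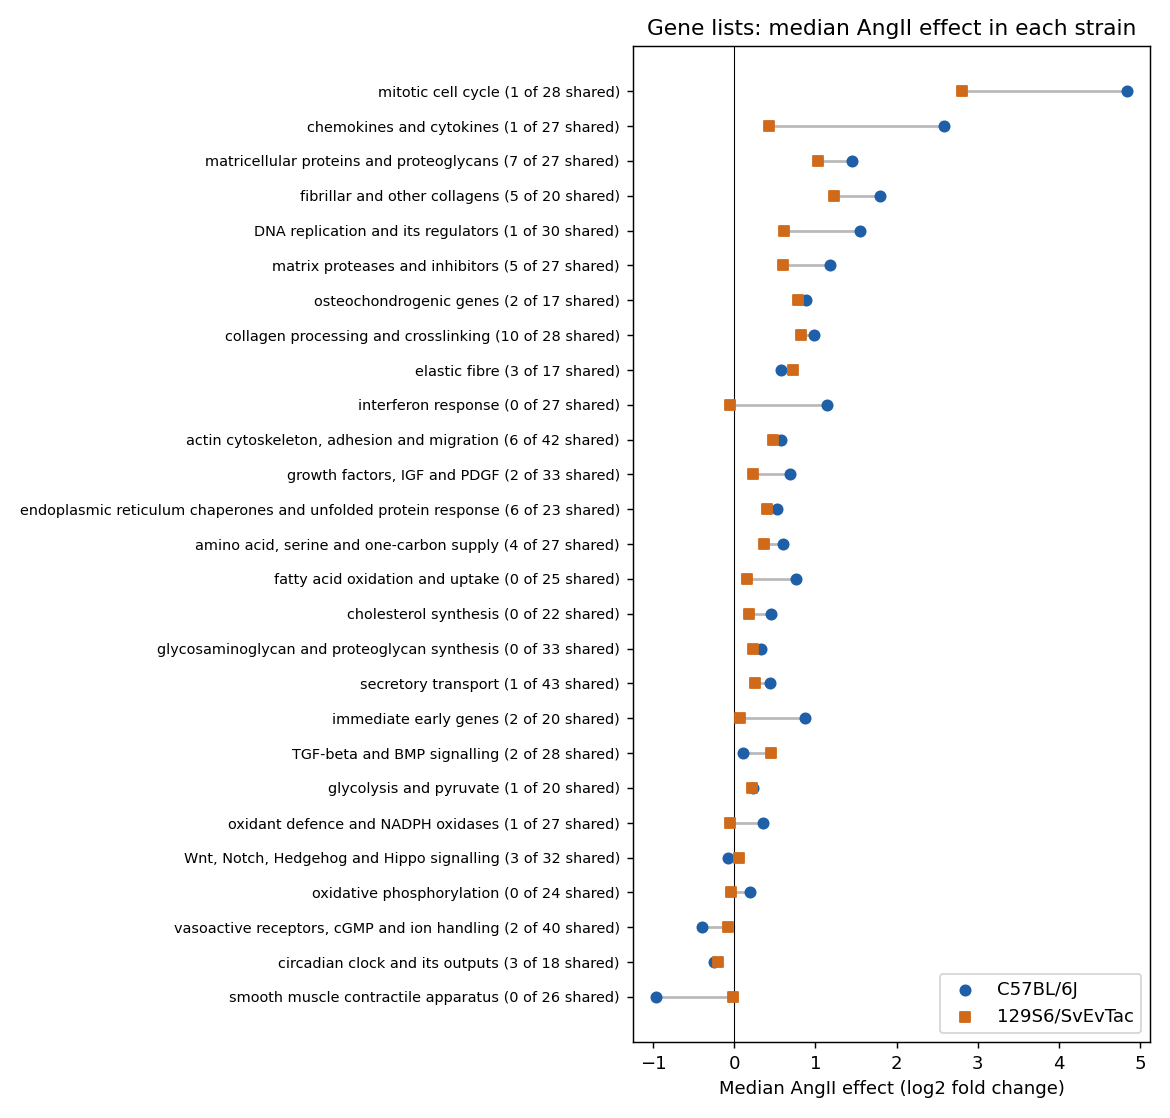
Median AngII effect (log2 fold change) over the tested genes of each of 27 gene lists, in C57BL/6J (circles) and 129S6/SvEvTac (squares), with the number of shared genes of those tested in brackets. Collagen crosslinking (0.99 and 0.82) and the elastic fibre (0.57 and 0.72) have close medians, and the mitotic cell cycle (4.83 and 2.80) and the contractile apparatus (-0.96 and -0.02) do not.

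Transcription factors and secreted signals that rose by similar amounts included Nr4a3, Fosl1, Il11, Hbegf and Pgf. Of 20 immediate early genes 8 were called higher and 2 lower, against 22.2% and 17.5% of all genes tested. The medians of that list were 0.87 in C57BL/6J and 0.07 in 129S6/SvEvTac, and 2 were shared. Of 27 chemokines and cytokines 18 were called higher and 1 lower, and 1 was shared, against 3.89% of all genes tested. Their medians were 2.58 in C57BL/6J and 0.43 in 129S6/SvEvTac, and the difference was called in 10, against 9.96%. In C57BL/6J, Nr4a3 stood at 11.96, 10.7, 12.07 and 27.5 CPM in controls and at 56.4, 141, 152 and 42.02 CPM with AngII. Levels of Nr4a3 in 129S6/SvEvTac were 5.65, 9.8, 13.8 and 11.4 CPM in controls and 65.9, 57.1, 30.6 and 66.9 CPM with AngII. Nr4a3 (ENSMUSG00000028341.9, chromosome 4, 48045153 to 48086447) encodes an orphan nuclear receptor induced early after stimulation. In C57BL/6J the libraries numbered 2 and 3 were the higher ones, and the effects were 2.65 ± 0.45 (SE) in C57BL/6J and 2.44 ± 0.45 in 129S6/SvEvTac (adjusted p of the average = 2e-05, edgeR). Fosl1, which encodes a Fos family subunit of AP-1, had 2.76 ± 0.54 (SE) in C57BL/6J and 2.94 ± 0.58 in 129S6/SvEvTac, but 57.2% of its exonic length is overlapped by Ccdc85b. Il11, a cytokine that activates fibroblasts, had 2.58 ± 0.79 (SE) in C57BL/6J and 2.87 ± 0.89 in 129S6/SvEvTac at levels of at most 5.197 CPM. Hbegf, an EGF receptor ligand, had 1.16 ± 0.27 (SE) in C57BL/6J and 1.12 ± 0.27 in 129S6/SvEvTac, and C57BL/6J AngII 5 at 48.2 CPM lay within its control range. In C57BL/6J, Pgf stood at 4.78, 4.72, 4.93 and 4.56 CPM in controls and at 18.4, 42.8, 21.3 and 7.93 CPM with AngII. Levels of Pgf in 129S6/SvEvTac were 3.75, 4.7, 5.15 and 3.82 CPM in controls and 25.8, 19.3, 21.3 and 19.7 CPM with AngII. Pgf encodes placental growth factor, a member of the VEGF family, and its effects were 2.25 ± 0.34 (SE) in C57BL/6J and 2.30 ± 0.34 in 129S6/SvEvTac.

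Several lists that moved with AngII held 1 or no shared gene each, which for lists of this size is near the 3.89% of all genes tested. All 28 mitotic genes were called higher, against 22.2% of all genes tested, with medians of 4.83 in C57BL/6J and 2.80 in 129S6/SvEvTac. Anln alone was shared (0.63 ± 0.22 (SE) in C57BL/6J and 0.81 ± 0.22 in 129S6/SvEvTac). Ccnd1, which encodes cyclin D1, was the shared member of 30 replication genes, with 1.04 ± 0.23 (SE) in C57BL/6J and 1.14 ± 0.23 in 129S6/SvEvTac, and 23.4% of its exonic length is overlapped by LTO1. Of 23 macrophage markers 22 were called higher, against 22.2% of all genes tested. The difference was called in 18 of them, against 9.96% of all genes tested, and none was shared. None of 27 interferon response genes and none of 18 adipocyte markers was shared, against 3.89% of all genes tested. The chemokine Ccl2 had 4.50 ± 0.61 in C57BL/6J and 0.58 ± 0.58 in 129S6/SvEvTac, with a called difference (adjusted p = 0.0095, edgeR). In all, 69 shared genes stood on a list.

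Other large shared risers were expressed at low levels. In C57BL/6J, Slc16a4 stood at 1.93, 1.96, 1.88 and 1.67 CPM in controls and at 10.5, 9.83, 9.51 and 9.84 CPM with AngII. Levels of Slc16a4 in 129S6/SvEvTac were 2.1, 1.98, 1.22 and 2.42 CPM in controls and 9.86, 9.89, 7.95 and 8.18 CPM with AngII. Slc16a4 (ENSMUSG00000027896.15, chromosome 3, 107291230 to 107312115) is a member of the monocarboxylate transporter family, and its average rise was 4.97-fold (adjusted p = 2.8e-08, edgeR), with effects of 2.41 ± 0.18 (SE) in C57BL/6J and 2.21 ± 0.18 in 129S6/SvEvTac. Nlrc3, a regulator of innate immune signalling, had 2.14 ± 0.21 (SE) in C57BL/6J and 2.56 ± 0.21 in 129S6/SvEvTac. Cdsn, which encodes corneodesmosin, had 2.11 ± 0.22 (SE) in C57BL/6J and 2.06 ± 0.21 in 129S6/SvEvTac on control levels that differed by -1.08 log2 units between strains (C57BL/6J minus 129S6/SvEvTac, adjusted p = 0.0032, edgeR). Cemip, which takes part in hyaluronan breakdown, had the highest fitted fold of the shared genes, but 3 of 4 C57BL/6J controls had no count and the fourth stood at 1.14 CPM. Its AngII libraries held 6.82 to 19.5 CPM in C57BL/6J and 3.10 to 8.44 CPM in 129S6/SvEvTac. The fitted average effect of Cemip was 5.65 and ran from 5.20 to 9.10 over the alternatives, with 9.10 when C57BL/6J control 3 was left out and 7.53 with limma voom, and it met the shared rule in 7 of the 16 fits that left out 1 library. Tnfrsf23, a decoy receptor of the TNF receptor family, had 2.89 ± 0.37 (SE) in C57BL/6J and 2.43 ± 0.37 in 129S6/SvEvTac. Syt12, a synaptotagmin, had 2.98 ± 0.32 (SE) in C57BL/6J and 2.57 ± 0.32 in 129S6/SvEvTac, with 17.2% of its exonic length overlapped.

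Among shared genes with at least 5 CPM and no overlap that changed at least 2-fold on average, the closest pairs were Adra2a, Nnmt, Layn, Khk, Rab27b and Spns2. In C57BL/6J, Layn stood at 18.9, 18.9, 19.2 and 16.6 CPM in controls and at 38.9, 61.7, 41.3 and 34.9 CPM with AngII. Levels of Layn in 129S6/SvEvTac were 18.8, 19.2, 18.6 and 17.99 CPM in controls and 44.7, 44.7, 52.4 and 38.9 CPM with AngII. Layn (ENSMUSG00000060594.6, chromosome 9, 51054640 to 51077094) encodes the hyaluronan receptor layilin, and its difference was -0.01, with a 95% interval from -0.44 to 0.42. In C57BL/6J, Khk stood at 8.43, 9.84, 9.54 and 8.73 CPM in controls and at 4.22, 2.36, 5.38 and 4.17 CPM with AngII. Levels of Khk in 129S6/SvEvTac were 10.4, 8.97, 10.02 and 7.94 CPM in controls and 4.38, 3.61, 4.24 and 3.98 CPM with AngII. Khk (ENSMUSG00000029162.15, chromosome 5, 30921431 to 30931248) encodes ketohexokinase, the first enzyme of fructose breakdown, and its difference was 0.02, with a 95% interval from -0.54 to 0.59. Rab27b, a GTPase of vesicle release, had a difference of -0.03, with a 95% interval from -0.43 to 0.37. Nnmt, nicotinamide N-methyltransferase, had nearly equal effects (1.24 ± 0.30 (SE) in C57BL/6J and 1.24 ± 0.31 in 129S6/SvEvTac) from control levels 2.59 log2 units apart (adjusted p = 5.1e-05, edgeR), at 18.9 to 21.6 CPM in C57BL/6J and 2.37 to 4.39 CPM in 129S6/SvEvTac. The interval of its difference ran from -1.03 to 1.04. These pairs were picked for their closeness, so their closeness is no test of equality.

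**Figure D5:**
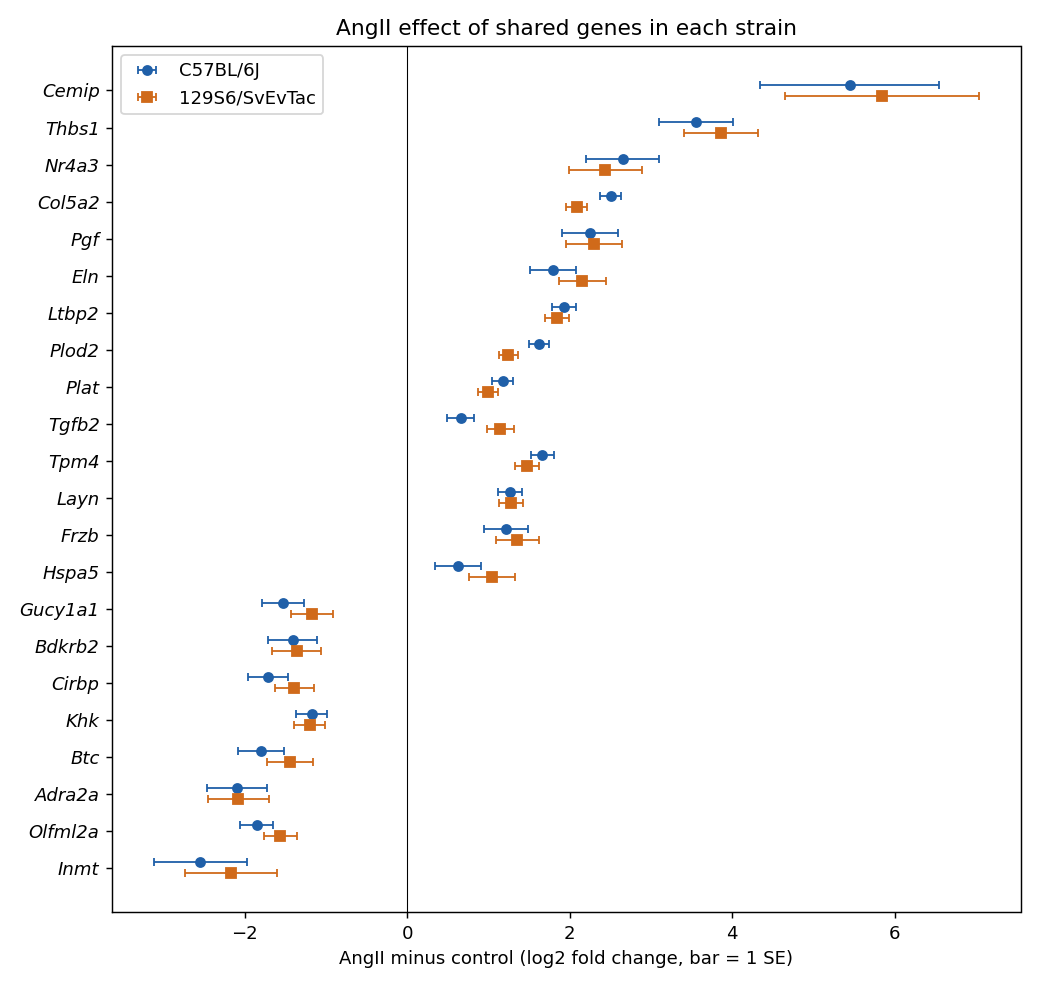
AngII effect (log2 fold change, with 1 SE as the bar) of 22 shared genes in C57BL/6J (circles) and 129S6/SvEvTac (squares). The pairs run from 5.45 and 5.85 for Cemip, whose fitted values rest on controls at or near 0, to -2.55 and -2.17 for Inmt, and those of Col5a2, Plod2 and Layn have short bars.

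Igf2r, the mannose 6-phosphate and IGF2 receptor, was the 1 shared gene with a called difference, 0.49, with a 95% interval from 0.20 to 0.78 (adjusted p = 0.033, edgeR), with effects of 1.15 ± 0.10 (SE) in C57BL/6J and 0.65 ± 0.10 in 129S6/SvEvTac. Other shared members of the lists were Gpx8, an endoplasmic reticulum peroxidase (1.001 ± 0.11 (SE) in C57BL/6J and 0.67 ± 0.11 in 129S6/SvEvTac), and Mgp, matrix Gla protein, which inhibits calcification of the wall (0.76 ± 0.14 (SE) in C57BL/6J and 0.89 ± 0.14 in 129S6/SvEvTac). Ank, a pyrophosphate exporter, had 0.63 ± 0.11 (SE) in C57BL/6J and 0.77 ± 0.11 in 129S6/SvEvTac. Cdh5, encoding VE-cadherin of the endothelium, had 0.77 ± 0.29 (SE) in C57BL/6J and 1.10 ± 0.29 in 129S6/SvEvTac. Of the 18 endothelial markers 6 were called higher and 1 lower, against 22.2% and 17.5% of all genes tested. Of 32 Wnt, Notch, Hedgehog and Hippo genes 8 were called higher and 9 lower, against 22.2% and 17.5% of all genes tested. Of these 32, 2 were shared risers and 1 a shared faller. Frzb, a secreted Wnt antagonist, had 1.22 ± 0.27 (SE) in C57BL/6J and 1.36 ± 0.27 in 129S6/SvEvTac, and Ankrd1, a target of Hippo signalling, 1.30 ± 0.39 (SE) in C57BL/6J and 1.08 ± 0.38 in 129S6/SvEvTac with overlap in both strains. Wnt4 was lower, with an average effect of -1.24. It stayed under 2.5 CPM and lost its call in 6 of 26 alternative settings (adjusted p up to 0.26). Just inside the limit on the difference stood Zfp57 and Gprasp1, at 0.498 each, and just outside Zfp395 (0.501) and Capsl (0.502). At the limit on the smaller effect, Fancg (0.585) was inside and Anxa1 (0.584) outside.

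Leaving out each of the 16 libraries in turn gave 598 to 709 shared genes, of which 493 to 585 were among the 667. All 16 of these fits kept 242 of the 667 and 173 of the 312 bounded genes, and at least 12 fits kept 501 and 288. Genes kept by fewer fits included Igf2r (6), Cemip, Tubb6 and Kcnq3 (7 each), and Plaur and Nr3c2 (8 each). With the adipocyte marker score as a covariate 656 genes met the rule, of which 430 were among the 667.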

How the data were processed

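Total RNA of whole descending thoracic aorta was sequenced in 16 libraries, 4 in each of 4 groups. Per the labels' protocols, extraction used an RNeasy kit with DNase treatment, HISAT2 placed the reads on GRCm38 (mm10), and StringTie with Gencode annotation estimated abundance. The submitters' processing notes name DESeq2 1.26.0 beside R 3.6.2 without saying what for. The authors deposited these as estimated counts per gene, all whole numbers, for 52636 genes, so rounding changed nothing. The step from StringTie to counts, the release of Gencode and the use of strand are not given in the sources, so overlapping genes are named as uncertain.

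Groups were read from the labels. GENCODE M21 (GRCm38) gave names and positions for 52489 genes, and the 147 without a name held at most 0.0431% of a library's counts. No replicates were alike (lowest chi-square per degree of freedom 37.6). Since no label says that libraries are separate animals, p-values measure the spread between these libraries, which may be technical.

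In R 4.3.3, edgeR 4.0.16 kept 17125 genes (filterByExpr, minimum count 10), computed TMM factors and fitted a robust quasi-likelihood model with 1 mean per group over all 16 libraries. The contrasts were the AngII effect in each strain, their mean and their difference. Benjamini-Hochberg adjusted p under 0.05 over all genes made a call, and standard errors were derived from the F statistic. CPM use TMM-adjusted totals, and log2 CPM a prior count of 2. The steps were tested on simulated data. Promoters came from the RefSeq table on GRCm38.p6.

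The members, the 38 gene lists (27 pathway, 11 marker) and the rule were chosen with earlier results of these data known. The rule for named genes took the 12 largest rises and falls and the 6 closest pairs among shared genes with at least 5 CPM and no overlap, up to 3 shared members per list by p, a panel of 11 genes and the 4 called genes with the largest difference. Col4a1, Col6a1, further shared list members, promoter genes and channel genes lie outside it and were chosen after their values were seen. Some results are not reported here. Alternatives were RLE scaling, library size alone, other filters, DESeq2 1.42.0, limma 3.58.1 voom, covariates, a replicate block, other limits and left-out libraries. Chosen after seeing the data was leaving out C57BL/6J AngII 1 and 129S6/SvEvTac AngII 5 together. Same-numbered libraries correlated by -0.06 to 0.15 in their deviations from group means, so the numbers were not used to pair them.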

Additional observations from a re-analysis of the deposited data

Results flagged for a closer look

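Over 83 genes described in the report, a single library stood apart from the other 3 of its group, by Dixon's criterion for 4 values, in 23 of 332 groups, and chance gives about 1 in 20. In C57BL/6J controls, library 5 stood at 3348 CPM for Ccn2, 27.5 CPM for Nr4a3, 42.9 CPM for Ccnd1, 261 CPM for Gucy1a1 and 16.6 CPM for Layn. Library 3 of that group stood at 2.87 CPM for Mmp12, 1.54 CPM for Fosl1, 1.14 CPM for Cemip and 18.9 CPM for Nnmt, and library 2 at 1.90 CPM for Spns2 and 1567 CPM for Col1a1. With AngII in C57BL/6J, library 3 stood at 37.9 CPM for Inmt, against 2.69 to 8.57 CPM in the others.

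In 129S6/SvEvTac controls, library 1 stood at 33.7 CPM for Olfml2a, 0.859 CPM for Nlrc3, 248 CPM for Lox and 1.47 CPM for Ccl2, library 2 at 7.22 CPM for Bdkrb2 and library 3 at 77.6 CPM for Frzb. With AngII in that strain, library 1 stood at 228 CPM for Bmp1 and 460 CPM for Mfap5. Library 5 stood at 134 CPM for Pdia6 and 16.1 CPM for Syt12, and library 4 at 6.48 CPM for Chac1.

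The AngII effect differed between strains by the test of the difference itself (edgeR, adjusted p under 0.05) for 5 of these 83 genes, which do not include Elfn1, Il6, Tnn and Ugt1a6b, named for the largest differences and not described. C57BL/6J minus 129S6/SvEvTac was 0.49 for Igf2r, 0.88 for Lox, -1.01 for Acta2, -1.35 for Myh11 and 3.92 for Ccl2.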

How the results depend on the processing

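The number of calls on the average effect stayed within 1.5 times 6790 under every alternative run (5384 to 7570). Calls in 129S6/SvEvTac numbered 3325 with limma voom. Calls on the difference numbered 2663 with DESeq2, 2682 with limma voom and 1049 without C57BL/6J AngII 1 and 129S6/SvEvTac AngII 5. Leaving out 1 library gave 1039 (without 129S6/SvEvTac control 2) to 2990 (without C57BL/6J AngII 3) calls on the difference, and 1076 without 129S6/SvEvTac AngII 4. The cause was not tested.

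The number of shared genes follows its limits by construction. It was 362 with a limit of 0.25, 1022 with a limit of 1, 240 at 2-fold in each strain, 3758 with no minimum effect and 392 when called in each strain. Bounded genes numbered 67 at 2-fold and 3257 with no minimum. Scaling by library size alone gave 861 shared genes with 23.8% higher, against 46.9%, 547 of them among the 667, and the share of calls that were higher went from 63.3% to 25.2% in 129S6/SvEvTac and from 56.1% to 45.4% in C57BL/6J.

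The replicate block, with the labels' numbers as an added factor, gave 6005 calls on the average, 1426 in 129S6/SvEvTac and 600 shared genes, 497 of them among the 667. Adding the adipocyte score as covariate changed the average effect of Agtr1a, uncalled throughout, from 0.404 to -0.0895. The genes taken by the naming rule, a set that overlaps the genes described and also numbers 83, all kept their side of the threshold under both other scalings and, where DESeq2 gave an adjusted p, all 82 there. The calls of Nr3c2, Wnt4, Elfn1, Ugt1a6b, Acta2, Il6, Bambi and Hlf were lost in 1 to 10 settings each. With the adipocyte score as covariate, 7 of these calls were lost, all but that of Il6. The median SE of the difference was 0.37 over the 667, against 0.28 over all genes tested.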

Other observations

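Ion channel genes were picked after single members were seen. Of 55 potassium channel subunit genes tested, 10 were called higher on the average (18.2%, against 22.2% of all genes tested) and 17 lower (30.9%, against 17.5%). The median effect of the 55 was 0.29 in C57BL/6J and -0.21 in 129S6/SvEvTac. Of them 5 were shared (9.09%, against 3.89%), all lower, among them Kcna2 (-1.25 in C57BL/6J and -1.28 in 129S6/SvEvTac), Kcnj12 (-1.52 and -1.14), Kcnk1 (-1.31 and -1.45) and Kcnq3 (-1.26 and -0.76). Of 16 calcium channel subunit genes, 3 were called higher (18.8%) and 6 lower (37.5%). The median effect of the 16 was -0.53 in C57BL/6J and -0.05 in 129S6/SvEvTac. Cacnb2 (-1.12 and -0.66) and Cacna2d3 (-1.42 and -1.03) were shared (12.5%, against 3.89%). Piezo1, a stretch-activated cation channel, was a shared riser (1.23 and 1.02), with 24.6% of its exonic length overlapped by Ctu2.

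Of the 358 genes named as zinc finger proteins by the prefix Zfp, 16 were called higher (4.47%, against 22.2% of all genes tested) and 117 lower (32.7%, against 17.5%), and 1 and 12 were shared in these directions (3.63% in all, against 3.89%). Their median average effect was -0.17, against 0.01 for all genes tested under the same scaling. Library size alone moved the median of all genes to -0.12, and no Zfp median is given for that scaling. Genes that are not protein coding made up 102 of the 354 shared fallers and 16 of the 313 risers. Protein-coding genes were 71.2% of the fallers and 94.9% of the risers, against 84.5% of all genes tested. Among the 2657 such genes tested, 131 were called higher (4.93%, against 22.2% of all genes tested) and 454 lower (17.1%, against 17.5%). Pink1, a kinase of mitochondrial quality control, was a shared faller (-1.11 and -0.64), as was Calcrl, the receptor component for adrenomedullin (-0.60 and -0.80), whose ligand gene Adm also fell (-1.06 and -1.17).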
